A study of Mus musculus with 2 samples.

Results

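Aplnr/Apln cells were the endothelial cells of the postnatal heart that expressed more of 4 genes linked to growing coronary capillaries than of any other endothelial marker set. They were chosen by measured UMIs. A cell was endothelial gated when Pecam1, Cdh5 and Egfl7 summed to at least 3 UMIs with 0 UMIs of Ptprc and Pdgfra. It counted as an Aplnr/Apln cell when at least 2 of the set A genes Aplnr, Apln, C1qtnf9 and Pcdh17 were detected, and more of them than of any other set of 4 genes. The other sets were Car4, Timp4, Aqp7 and Rbp7 (set B), Gja5, Sema3g, Hey1 and Stmn2 (set C), Npr3, Cytl1, Tmem108 and Plvap (set D), and Prox1, Mmrn1, Reln and Ccl21a (set E). The rule was met by 1820 of 13502 cells (13.5%), of which 303 came from P1 and 1517 from P7. The levels of these selection genes are therefore given as a description.

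The 2 libraries were 3′ single cell RNA-seq of live cells sorted from mouse hearts at postnatal day 1 (P1) and postnatal day 7 (P7), ages set side by side in the study to ask how hypoxia-related expression differs in the intact neonatal heart. Each library was made from 3 hearts of a single litter, pooled before collagenase digestion for 20 min at P1 and 45 min at P7. The labels name no strain, allele or treatment. With 1 library for each age, no difference between ages could be tested. Levels are UMIs summed over cells per 1000000 UMIs (CPM), ratios are log2 of P1 CPM over P7 CPM with 0.5 counts added, and all intervals are 95% intervals that cover counting error only. Between ages, a gene was called past the fold at a 2-fold difference, among genes with at least 50 UMIs over both libraries. Contrasts of cell groups within a library required at least 50 UMIs over both groups in each library.

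Several features of the libraries stand before the results. Xist, the RNA of the inactive X chromosome, had 4206 UMIs in the Aplnr/Apln cells at P1 and 3 at P7. Of the Y chromosome, Eif2s3y, Ddx3y, Uty and Kdm5d had 0 UMIs at P1 against 1081, 1053, 265 and 159 at P7. Age, sex of the pool and digestion time therefore cannot be told apart. X-linked genes had a median ratio of 0.00 over 337 genes. The barcode lists shared 18 barcodes, and 1 Aplnr/Apln cell at P7 carried the barcode of a retained P1 cell. Aplnr/Apln cells had a median of 11583 UMIs and 3400 genes at P1 and 8124 UMIs and 2833 genes at P7, with a mitochondrial share of 3.35% and 3.39%.

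Apelin, encoded by Apln, is a secreted peptide, and the apelin receptor, encoded by Aplnr, is its G protein-coupled receptor. In the developing heart the receptor marks endothelium that grows from the sinus venosus into coronary veins and capillaries, and the ligand is made by sprouting capillary endothelium. Capillaries of the heart muscle also carry lipid from blood to cardiomyocytes, for which GPIHBP1 anchors lipoprotein lipase on the vessel lumen, CD36 takes up fatty acid and FABP4 binds it inside the cell.

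The capillary name was checked with genes that the rule did not use, and these were abundant. A Gpihbp1 UMI was found in 96.0% of Aplnr/Apln cells at P1 and 98.2% at P7. The summed level of Gpihbp1 was 1792 CPM (1750 to 1835) at P1 and 2155 CPM (2131 to 2180) at P7, against 719 and 367 CPM in set C cells and 151 and 36.1 CPM in set D cells. In retained cells with no UMI of the 3 endothelial genes it was 10.9 and 11.9 CPM, with a UMI in 9.84% and 13.6% of cells at a median of 10511 and 13530 UMIs. Fabp4 was as high as 19608 CPM at P1 and 18469 at P7, and Cd36 was at 1257 and 1043 CPM. Both were lower in sets C and D at either age. Set B cells, the endothelial cells most like them, were higher than the Aplnr/Apln cells for Gpihbp1, Fabp4 and Cd36 in both libraries. Against all other endothelial gated cells, 0 of 16 capillary genes were at least 2-fold higher in both libraries, with a median difference of -0.26 at P1 and 0.10 at P7. The capillary list summed to 31703 against 36928.5 CPM in those cells at P1, and to 32175 against 30120 CPM at P7. The arterial list summed to 966 and 931 CPM, against 2312 and 3634 CPM in other endothelial gated cells, with Eln most abundant at P1, Ltbp4 at P7 and Dkk2 at 0 in both libraries. Eln was at least 2-fold higher than in set B cells in both. Gja5, the arterial gap junction gene of set C, had 1 UMI at P1 and 8 at P7. The rule selects against set C genes, and the other endothelial gated cells include set C. The Gja5 counts and the arterial sums are therefore a description and no check of the name.

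**Figure D1:**
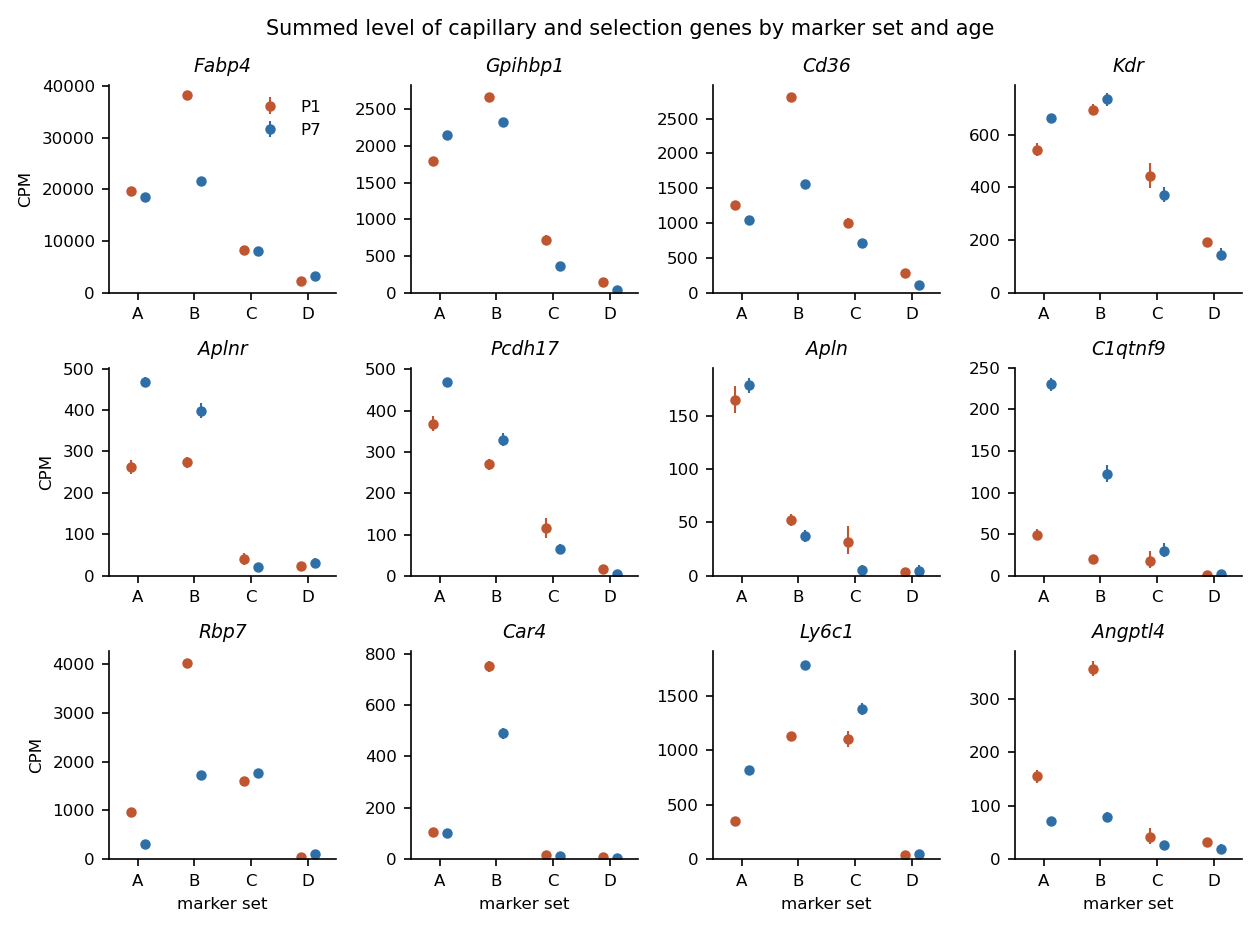
Summed level in CPM (vertical axes, linear) of 12 genes in cells of marker sets A to D at P1 and P7. Points are the sum over the cells of 1 library and bars the 95% Poisson interval. Gpihbp1 in set A cells was 1792 CPM at P1 and 2155 CPM at P7, above sets C and D and below set B.

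The share of Aplnr/Apln cells was larger in the P7 library. They made up 6.07% of the 4991 cells retained at P1, with an interval of 5.42% to 6.77%, and 17.8% of the 8511 retained at P7, with an interval of 17.0% to 18.7%. Among endothelial gated cells they were 17.6% of 1722 (15.8% to 19.5%) in the younger library and 44.7% of 3395 (43.0% to 46.4%) in the older. Set B went the other way, from 36.5% at P1 to 18.3% at P7, and set D, which holds endocardial genes, from 15.5% to 2.68%. Sorted shares depend on digestion, which was longer at P7. They also depend on the levels of the selection genes over all endothelial gated cells. There each set A gene was higher at P7, C1qtnf9 most, at 24.5 and 169 CPM. Of set B, Rbp7 (1983 and 751 CPM), Timp4 (286 and 84.8 CPM) and Car4 (318 and 192 CPM) were lower at P7. Aqp7 was not, at 87.0 and 102 CPM. The part of digestion and of these levels in the shares was not tested.

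**Figure D2:**
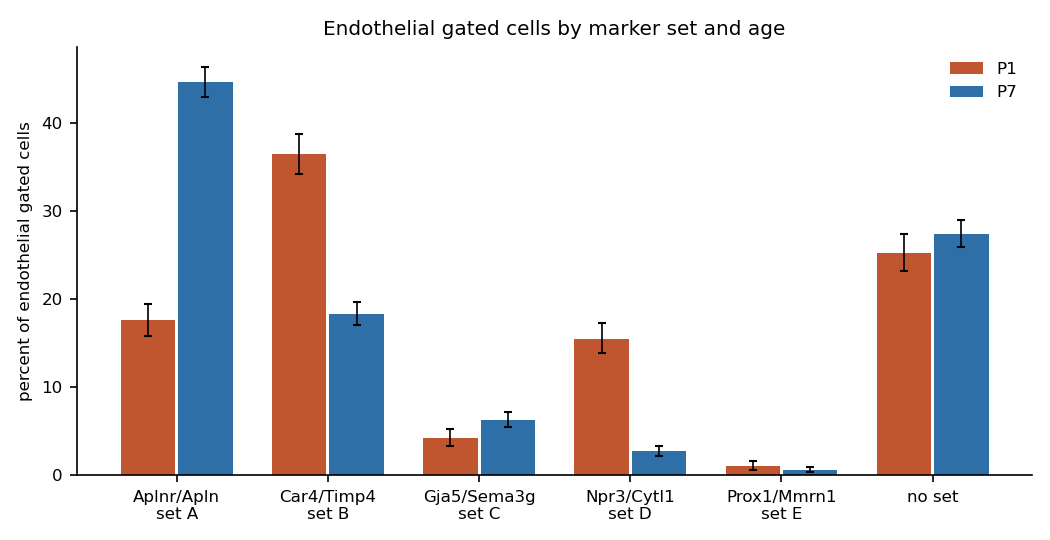
Percent of endothelial gated cells (vertical axis) in each marker set at P1 and P7, with 95% Clopper-Pearson intervals as bars. Set A, the Aplnr/Apln cells, was 17.6% at P1 and 44.7% at P7.

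Much of the rule turned on single detected genes. At P1, 138 Aplnr/Apln cells had 2 set A genes, 112 had 3 and 53 had 4. At P7 these counts were 318, 649 and 550. Cells that led the next set by exactly 1 gene were 66.7% at P1 and 43.1% at P7. Just outside the rule, 209 endothelial gated cells at P1 and 602 at P7 had at least 2 set A genes but tied with another set, which was set B for 178 and 588 of them. A further 425 and 439 had at least 2 set A genes but fewer than another set. All cells with at least 2 set A genes made up 54.4% of endothelial gated cells at P1 and 75.3% at P7. Aplnr in the tied cells was 311 and 513 CPM at the 2 ages, and in cells just inside, with 2 set A genes, 216 and 451 CPM. Cells with 1 set A gene and none of the other sets numbered 24 and 54, at a median of 1685 and 1584 UMIs.

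Depth entered these shares as well. After every cell was thinned to 2000 UMIs, 9.58% of the P1 endothelial gated cells met the rule (8.12% to 11.2%), as did 32.0% of those at P7 (30.4% to 33.7%). The P7 share stayed the larger. Only 29.6% of full depth Aplnr/Apln cells at P1 and 51.0% at P7 met the rule again at 2000 UMIs.

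The rule conditions the levels of its own genes, so those over all endothelial gated cells are given beside them. Aplnr (chr2:85136225-85139923, GRCm38) was at 262 CPM (246 to 278) at P1 and 467 CPM (456 to 479) at P7, a ratio of -0.83 (-0.93 to -0.74). Apln (chrX:48025146-48034853) was at 165 CPM (152 to 178) and 178 CPM (171 to 186), a ratio of -0.11 (-0.24 to 0.01). Over all endothelial gated cells Apln was at 70.1 and 114 CPM, a ratio of -0.70 (-0.80 to -0.61), and Aplnr at 201 and 400 CPM, a ratio of -0.99. With every cell thinned to 2000 UMIs, 9.40% and 16.2% of endothelial gated cells had an Apln UMI, against 0.899% and 1.65% of unthinned retained cells without endothelial UMIs. In set B cells Aplnr was close to that of the Aplnr/Apln cells, at 274 and 398 CPM, whereas Apln was 51.9 and 36.9 CPM. Aplnr and Apln were detected together in 127 Aplnr/Apln cells at P1 (41.9%) and 812 at P7 (53.5%). In retained cells with no UMI of the 3 endothelial genes, 1.62% at P1 and 2.93% at P7 had an Aplnr UMI, at a median of 10511 and 13530 UMIs.

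C1qtnf9 (chr14:60768134-60780869) showed the largest difference of the 4. It encodes a secreted protein of the C1q and TNF related family. Its level was 49.3 CPM (42.6 to 56.8) at P1 and 230 CPM (222 to 238) at P7, a ratio of -2.22 (-2.44 to -2.01), and over all endothelial gated cells 24.5 and 169 CPM, a ratio of -2.79. Set B cells had the same direction, at 20.1 and 122 CPM. Over all endothelial gated cells thinned to 2000 UMIs, a C1qtnf9 UMI was found in 4.39% at P1 and 26.6% at P7, against 0.225% and 1.56% of unthinned retained cells without endothelial UMIs. Pcdh17 (chr14:84443563-84539002), a protocadherin of cell contacts, was at 369 and 468 CPM, a ratio of -0.35 (-0.43 to -0.26), and over all endothelial gated cells at 235 and 374 CPM, a ratio of -0.67. Gpihbp1 (chr15:75596628-75599481), the marker outside the rule, had a ratio of -0.27 (-0.30 to -0.23).

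Foxf1 and Scn7a, which stand on the lung endothelial list, were found together in a minority of the P1 cells. Foxf1, a forkhead factor of lung capillaries, or Scn7a, a sodium channel gene, had a UMI in 36 of 303 Aplnr/Apln cells at P1 (11.9%) and both in 31 of them. At P7 it was 15 of 1517 cells (0.989%), and both in 1. In retained cells with no UMI of the 3 endothelial genes, Foxf1 was found in 2.92% at P1 and 1.43% at P7, and Scn7a in 12.9% and 31.3%, at the median depths given above. Among Aplnr/Apln cells Foxf1 was found in 10.6% and 0.198% and Scn7a in 11.6% and 0.857%, so only the P1 share of Foxf1 lay above that in cells without endothelial UMIs. The summed level of Scn7a at P1 was 113 CPM in Aplnr/Apln cells and 19.1 CPM in those cells. The P1 cells with either gene had 8172 CPM of Fabp4, 140 CPM of Tcf15 and 66.6 CPM of Meox2. The other P1 cells had 20512, 409 and 206 CPM of these genes, of which Tcf15 and Meox2 encode partner factors of heart capillary endothelium. Among the lung list the 9 genes with enough UMIs gave 7 past the fold at P1 and 1, Itga1, at P7, with summed levels of 361 and 293 CPM, and Tbx4 and Foxf2 were at 0 in both libraries. Scn7a was the most abundant of the list at P1 and Itga1 at P7. The 15 P7 cells with either gene had 0 UMIs of Hpgd and 1 of Lyve1, against 51 and 240 in the 36 P1 cells. Their Fabp4, Tcf15 and Meox2 were at 7937, 378 and 109 CPM, against 18646, 620 and 188 CPM in the other P7 cells. Whether these 15 cells are of the same kind as the P1 cells was not tested. Main results were recomputed without cells that had a UMI of Foxf1, Scn7a or Hoxa5, which were 43 at P1 and 55 at P7, and these also held single cells with many haemoglobin or smooth muscle UMIs.

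Across 10562 genes, 211 (2.00%) were at least 2-fold higher at P1 and 340 (3.22%) at least 2-fold higher at P7, and the median ratio was -0.06. Counts for gene lists between ages are to be read beside these shares. Without Foxf1, Scn7a or Hoxa5 cells the counts were 165 and 359 of 10411 genes. In set B cells they were 149 and 264 of 9708 genes, with a median of -0.11. Foxf1, with 306 UMIs at P1 and 3 at P7, Scn7a, with 441 and 18, and Lyve1, with 242 and 21, were among the largest ratios towards P1. Lyve1, a hyaluronan receptor of lymphatic and some lung endothelium, turned from a ratio of 5.33 to -1.12 without them.

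**Figure D3:**
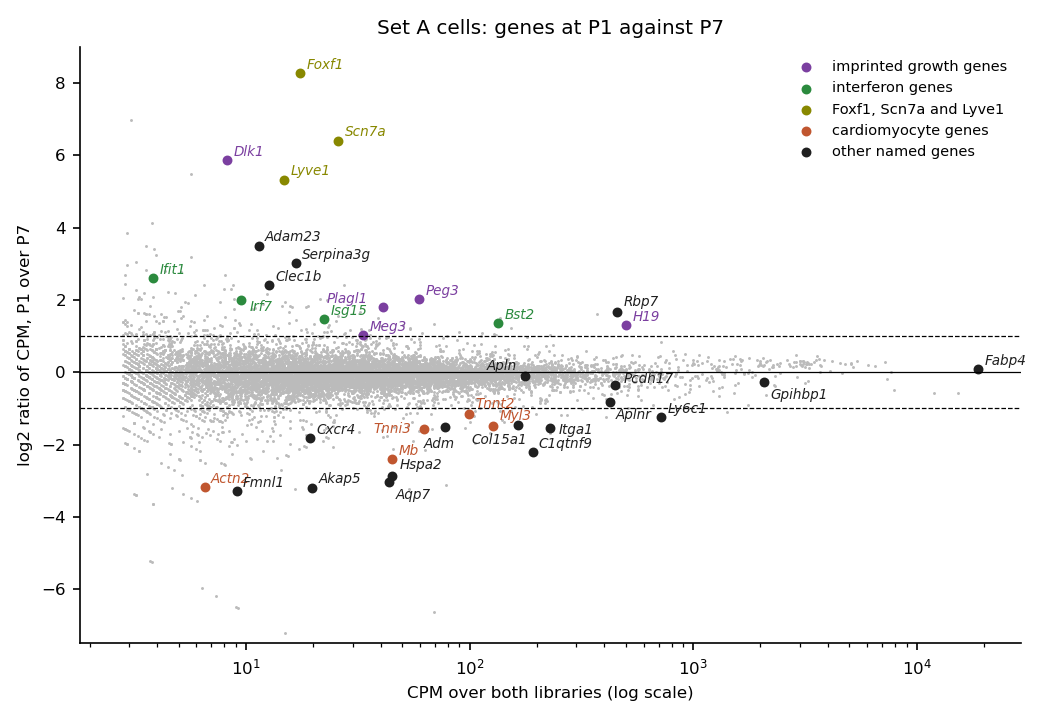
Log2 ratio of P1 over P7 CPM (vertical axis) against CPM over both libraries (horizontal axis, log scale) for genes with at least 50 UMIs in Aplnr/Apln cells. Dashed lines mark 2-fold and named genes are coloured by group. The sex genes Xist, Ddx3y and Eif2s3y lie outside the axis range. Most genes lie within 2-fold, with H19 and Rbp7 the most abundant named genes above the upper line and C1qtnf9, Itga1 and Ly6c1 among those below the lower one.

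Some imprinted growth genes were higher at P1. Of 13 listed genes with enough UMIs, 5 were past the fold at P1, against 2.00% of all genes, and 0 at P7. Their median was 0.39, and 3 of the 13 had a ratio below 0. After thinning to 2000 UMIs 3 were past the fold at P1. Peg3, a zinc finger gene expressed from the paternal allele, was at 144 CPM (133 to 157) at P1 and 35.6 CPM (32.6 to 38.9) at P7, a ratio of 2.02. Plagl1, a zinc finger factor that restrains proliferation, was at 91.8 and 26.4 CPM. H19, a maternally expressed long RNA, was at 935 CPM (905 to 966) and 379 CPM (369 to 390), a ratio of 1.30.

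Dlk1 and Meg3, which lie in a shared imprinted domain, were less evenly spread. Dlk1, a membrane ligand related to Notch ligands, had 138 UMIs at P1, of which 81 lay in a single cell, and 8 UMIs at P7. Meg3, a long RNA, had a ratio of 1.02, and 1.69 without Foxf1, Scn7a or Hoxa5 cells. Igf2, the fetal growth factor, was at 18.5 and 14.2 CPM, with an interval of its ratio from -0.03 to 0.78. Mest and Cdkn1c had ratios of 0.46 and 0.39, and Gnas, the most abundant of the list, was level at 3670 and 3675 CPM. In set B cells 2 of 13 imprinted genes were past the fold at P1, where Peg3 had a ratio of 2.68, H19 0.53 and Meg3 -0.79.

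Rbp7, a retinol binding protein gene of microvascular endothelium that belongs to set B, was at 974 and 309 CPM, a ratio of 1.66. Since Rbp7 counted for set B, cells with it entered the Aplnr/Apln group less readily. A Rbp7 UMI was present in 71.8% of all endothelial gated cells at P1 and 64.4% at P7, and at 2000 UMIs per cell in 59.9% and 47.7%. In unthinned retained cells without endothelial UMIs the share was 12.9% and 6.87%.

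Some interferon responsive genes were higher at P1. Of 18 genes of the MHC and interferon list, 4 were past the fold at P1, against 2.00% of all genes, and 0 at P7. Their median was 0.23, and 7 of the 18 had a ratio below 0. After thinning, 2 were past the fold at P1 and 1 at P7. Bst2, which tethers enveloped virus at the cell surface, was at 257 CPM (241 to 273) at P1 and 99.5 CPM (94.3 to 105) at P7. Isg15, a ubiquitin-like modifier, was at 44.5 and 16.1 CPM, and Irf7, a factor that drives interferon genes, at 22.9 and 5.76 CPM. Ifit1 had 43 UMIs in 17 cells at P1 and 25 UMIs in 14 cells at P7. Set B cells had 4 of 18 past the fold at P1 and 2 at P7, with ratios of 1.17 for Bst2 and 2.10 for Irf7. Class I MHC genes of the list were not among the 4.

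The remaining genes with the largest ratios towards P1 were of mixed function. Adam23, a disintegrin with no known protease activity, was at 39.6 CPM (33.6 to 46.3) at P1 and 3.46 CPM (2.55 to 4.58) at P7, a ratio of 3.51. Serpina3g, a protease inhibitor, was at 53.0 and 6.48 CPM, and Clec1b, a lectin receptor, at 34.7 and 6.48 CPM. Lcp1, an actin bundling protein, was at 31.4 and 6.98 CPM. Each of these 4 was also past the fold at P1 in set B cells, with ratios of 1.82, 2.29, 2.66 and 2.51. Slco2a1, a prostaglandin transporter, had a ratio of 2.03 that was 1.36 without Foxf1, Scn7a or Hoxa5 cells. Of secreted factors, 2 of 15 were past the fold at P1. These were Edn1, the vasoconstrictor endothelin, at 2.31 and 1.53 without Foxf1, Scn7a or Hoxa5 cells, and Bmp2 at 1.71 on 42 and 46 UMIs.

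Itga1, Col15a1 and Ly6c1 were among the genes past the fold at P7. Itga1, a collagen binding integrin subunit, was at 92.5 CPM (83.2 to 103) at P1 and 267 CPM (259 to 276) at P7, a ratio of -1.53. Col15a1, a collagen of the basement membrane zone, was at 68.9 and 190 CPM, a ratio of -1.46 (-1.65 to -1.28). Ly6c1, a GPI-anchored surface protein of capillary endothelium, was at 347 and 822 CPM, a ratio of -1.24. Each was also lower at P1 in set B cells, with ratios of -1.12, -1.88 and -0.65. Ltbp4, which binds latent TGF-beta, and Jam2, a junction adhesion molecule, had ratios of -1.17 and -1.16.

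Several genes with few UMIs at P1 had clear counts at P7, where the summed UMIs of the Aplnr/Apln cells were also larger (3890746 and 13887592). Hspa2, a heat shock protein gene related to Hspa8, had 29 and 764 UMIs at the 2 ages, a ratio of -2.86 (-3.47 to -2.35). Akap5, a scaffold for protein kinase A, had 10 and 341 UMIs, a ratio of -3.19. Fmnl1, a formin, had 4 and 157 UMIs, a ratio of -3.29 (-5.35 to -2.07). Papln, an extracellular matrix protein, had 10 and 244 UMIs, a ratio of -2.71. At P7 these counts were spread over 442, 245, 140 and 216 cells. Set B cells had ratios of -2.41, -1.55, -2.71 and -0.80 for the same genes. Aqp7, a glycerol channel and a set B gene that the rule selects against, had 25 and 747 UMIs in these cells, but 87.0 and 102 CPM over all endothelial gated cells.

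Other large ratios towards P7 included some that rested on a single cell. Mcpt4, Mcpt2 and Cma1, proteases of mast cells, had 0 UMIs at P1 and 163, 130 and 112 at P7, of which 162, 130 and 111 were in the cell with most of each. Actn2, a sarcomeric actinin gene, had 3 UMIs at P1 and 113 at P7. Olfr558, an olfactory receptor gene, had 2 UMIs at P1 and 105 at P7 in 34 cells. Haemoglobin UMIs, at 1129 and 1166 CPM, summed to 4391 at P1, with 4344 in a single cell, and to 16197 at P7, with 5607 in the highest cell. The levels without Foxf1, Scn7a or Hoxa5 cells were 10.01 and 1221 CPM. C1qa, a complement gene of macrophages, had 105 UMIs at P7 with 89 in a single cell.

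Cardiomyocyte markers were higher at P7 in the Aplnr/Apln cells. Of 10 cardiomyocyte genes, 9 were past the fold at P7, against 3.22% of all genes, and 0 at P1. The list of 12 genes summed to 252 CPM at P1 and 710 CPM at P7, with Myl3 the most abundant and no gene at 0. Myl3 was at 52.4 and 148 CPM, and was detected in 38.9% and 54.0% of cells. In retained cells with no endothelial UMI it was at 254 and 36.04 CPM. Other endothelial gated cells had 467 and 738 CPM of the cardiomyocyte list. In set B cells 1 of 9 cardiomyocyte genes was past the fold at P7 and 0 at P1, with a median of -0.42. Over all genes of set B cells 264 of 9708 were past it at P7.

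Mural and fibroblast genes were also past the fold towards P7 where they were past it at all. The share over all genes at P7 was 3.22%. Of 10 mural genes 6 were past the fold at P7, with summed levels of 234 and 571 CPM, and Acta2 was the most abundant, with 363 of its 425 UMIs at P1 and 713 of 2934 at P7 in a single cell. Tagln, an actin binding protein of smooth muscle, had a ratio of -3.12, with 202 of 1351 UMIs at P7 in its highest cell. Without Foxf1, Scn7a or Hoxa5 cells, 9 of the 10 mural genes were past the fold at P7, with a median of -3.17 in place of -1.21 and sums of 65.5 and 476 CPM. Of 8 fibroblast genes 4 were past the fold at P7, and the list summed to 353 and 717 CPM, with Dcn most abundant at P1 and Col3a1 at P7. Without those cells 1 of the 8 was past the fold, with a median of -0.57 in place of -1.01 and sums of 364 and 540 CPM. No gene of either list was at 0. Of 5 macrophage genes 1, Mrc1, was past the fold at P1 and 4 at P7, and the list summed to 28.02 and 42.48 CPM, with Mrc1 the most abundant at P1, Lyz2, with 99 of 233 UMIs in a single cell, at P7 and none at 0. After thinning, 5 cardiomyocyte and 2 mural genes were past the fold at P7. A filter that removed cells with mural and fibroblast UMIs left 1 mural gene past it. In set B cells 1 of 8 mural genes was past the fold in each direction, and 5 of 8 fibroblast genes were past it at P7. The part of cardiomyocyte, mural, fibroblast and macrophage RNA in the ratios above was not tested.

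Of 20 tip cell and angiogenic genes, 3 were past the fold at P7, against 3.22% of all genes, and 0 at P1, with a median of -0.36. In set B cells 6 of the 20 were past it at P7. The 3 in Aplnr/Apln cells were Col15a1, Cxcr4, the receptor for CXCL12, at 6.43 and 22.97 CPM, and Adm, which encodes the vasodilator adrenomedullin, at 31.1 CPM (25.8 to 37.2) and 89.8 CPM (84.9 to 94.9). Adm had a ratio of -1.52 in the Aplnr/Apln cells and -0.59 in set B cells. Dll4, the Notch ligand of tip cells, was at 50.4 and 84.4 CPM, and Angpt2, a destabilising ligand of TIE2, at 8.48 and 16.1 CPM. Esm1, a proteoglycan of sprouting endothelium, was at 17.7 and 15.4 CPM, with an interval of its ratio from -0.21 to 0.60.

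VEGF, TIE and Notch genes stayed within 2-fold in all cells of the group. Of 14 VEGF and TIE genes 0 were past the fold, with a median of -0.26. Kdr, the main VEGF receptor, was at 543 and 663 CPM, and Nrp2, a VEGF co-receptor, at 258 and 456 CPM. Of 12 Notch genes 0 were past the fold, and 10 had a ratio below 0. Without Foxf1, Scn7a or Hoxa5 cells 1 of the 12 was past the fold at P7. Of 13 basement membrane genes 1 was past the fold at P7, which was Col15a1, and 11 were below 0 with a median of -0.42. In the absence of those cells 2 of the 13 were past it. Col4a1 was at 1489 and 2291 CPM. Of 9 junction and caveola genes 1 was past the fold at P7, which was Jam2. Of 8 flow responsive genes 0 were past the fold. Klf2, the flow-induced factor, was at 746 and 1024 CPM.

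**Figure D4:**
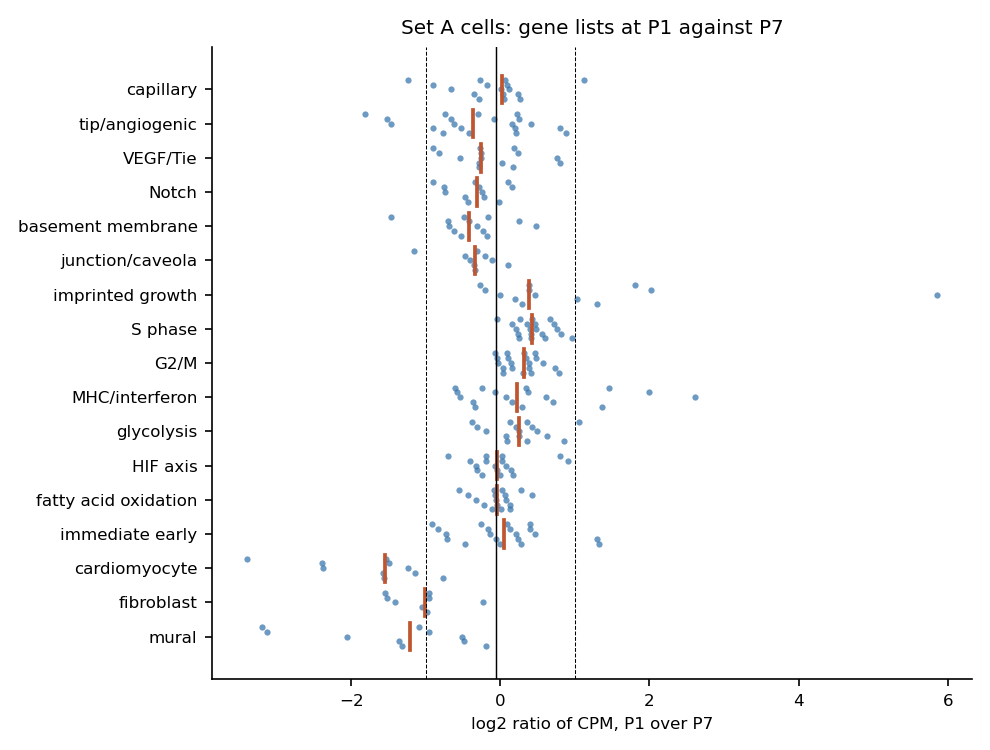
Log2 ratio of P1 over P7 CPM (horizontal axis) for single genes (points) of 17 gene lists in Aplnr/Apln cells, with the median of each list as a vertical bar. The solid line is the median over all genes, -0.06, and dashed lines mark 2-fold. The cardiomyocyte, mural and fibroblast lists lie to the left, and the imprinted list reaches furthest to the right.

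Capillary genes went both ways. Of 16 genes 1 was past the fold in each direction, 9 had a ratio above 0 and 7 below, and the median was 0.02. Angptl4, a secreted inhibitor of lipoprotein lipase, was the gene higher at P1, at 154 CPM (142 to 167) and 71.3 CPM (66.9 to 75.9), and Ly6c1 the gene higher at P7. Tcf15 was at 389 and 616 CPM, Sparcl1, a matrix protein gene, at 1041 and 1951 CPM, and Meox2 at 196 and 187 CPM. In set B cells Angptl4 had a ratio of 2.16. Of venous genes 1 of 8 was past the fold at P1, which was Vwf, the clotting carrier von Willebrand factor, at 46.5 and 16.2 CPM in 34 cells of each library. Without Foxf1, Scn7a or Hoxa5 cells 1 of the 8 venous genes was past the fold at P1 and 1 at P7. Nr2f2, the venous fate factor, was at 91.2 and 50.9 CPM. Arterial genes had 1 of 11 in each direction, Eln and Ltbp4, and Eln fell below the fold, at 0.89, without Foxf1, Scn7a or Hoxa5 cells. Of 8 endocardial genes 2 were past the fold at P1, Tgfbi and Vwf. Of the 4 lymphatic genes Lyve1 was past the fold at P1, and did not stay so without Foxf1, Scn7a or Hoxa5 cells. Of 7 lung epithelial genes only Hopx had enough UMIs, at 44.2 and 44.1 CPM, and Sftpb was at 0 in both libraries. Without Foxf1, Scn7a or Hoxa5 cells Hopx had a ratio of -1.18.

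Metabolic and oxygen-sensing genes stayed within 2-fold apart from 1 gene. Of 17 genes of the HIF axis 0 were past the fold in either direction, with a median of -0.05. Vegfa, a HIF target and growth factor for endothelium, was at 21.1 CPM (16.8 to 26.2) at P1 and 12.2 CPM (10.4 to 14.1) at P7. Bnip3, a mitophagy gene induced by HIF-1, was at 31.6 and 16.8 CPM, a ratio of 0.91. Egln1, the prolyl hydroxylase that marks HIF for destruction, was at 30.1 and 49.0 CPM, a ratio of -0.70. P4ha1, a collagen prolyl hydroxylase gene induced by HIF, was at 20.3 and 27.1 CPM, a ratio of -0.41, and the list had 8 genes above 0 and 9 below. Of 16 glycolysis genes 13 were above 0, and Pdk1, which limits pyruvate entry into mitochondria, was past the fold at P1 with a ratio of 1.06 (0.61 to 1.49) that became -0.083 when cells were thinned to 2000 UMIs. Slc2a1, the glucose transporter GLUT1, was at 21.6 and 12.0 CPM. Of 17 fatty acid oxidation genes 0 were past the fold, and the median was -0.04.

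Of 20 immediate early and digestion genes 2, Ier3 and Ctgf, were past the fold at P1, against 2.00% of all genes, and 0 at P7, with a median of 0.04 and Jund the most abundant in both libraries. Ier3 had a ratio of 1.30, and 0.73 without Foxf1, Scn7a or Hoxa5 cells. Of 9 glucocorticoid and metallothionein genes 0 were past the fold.

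No listed proliferation gene was past the fold between ages in all cells of the group. Of 20 S phase genes 19 had a ratio above 0 and 0 were past the fold, with a median of 0.42, and 1 was past it at P1 without Foxf1, Scn7a or Hoxa5 cells. Of 20 G2/M genes 17 were above 0 and 0 past the fold, with a median of 0.31. Dtl, a substrate receptor of a ubiquitin ligase that acts on the licensing factor CDT1, was at 41.1 and 21.1 CPM, and Cdk1, the mitotic kinase, at 189 and 113 CPM. A UMI of Mki67 or Top2a was found in 27.4% of Aplnr/Apln cells at P1 (22.4% to 32.8%) and 21.9% at P7 (19.8% to 24.1%), so the intervals overlap. After thinning to 2000 UMIs the shares were 15.1% and 13.3%.

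Within each library the Aplnr/Apln cells held more cycling cells than their neighbours. At P1 the share with a Mki67 or Top2a UMI was 15.4% in set B cells and 15.2% in all other endothelial gated cells, and at P7 11.7% and 13.95%. Thinned to 2000 UMIs these were 7.85% and 7.67% at P1 and 7.24% and 8.45% at P7. In set C cells the thinned share was 0 of 69 cells at P1, which allows up to 5.21%, and 4.48% at P7. The intervals of the Aplnr/Apln cells did not overlap those of set B cells in either library, at full depth or thinned. S phase genes had a median ratio over other endothelial cells of 1.12 at P1 and 0.53 at P7, against -0.05 and -0.04 over all genes. Since the cells were chosen within each library by their own UMIs, these contrasts are a description.

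**Figure D5:**
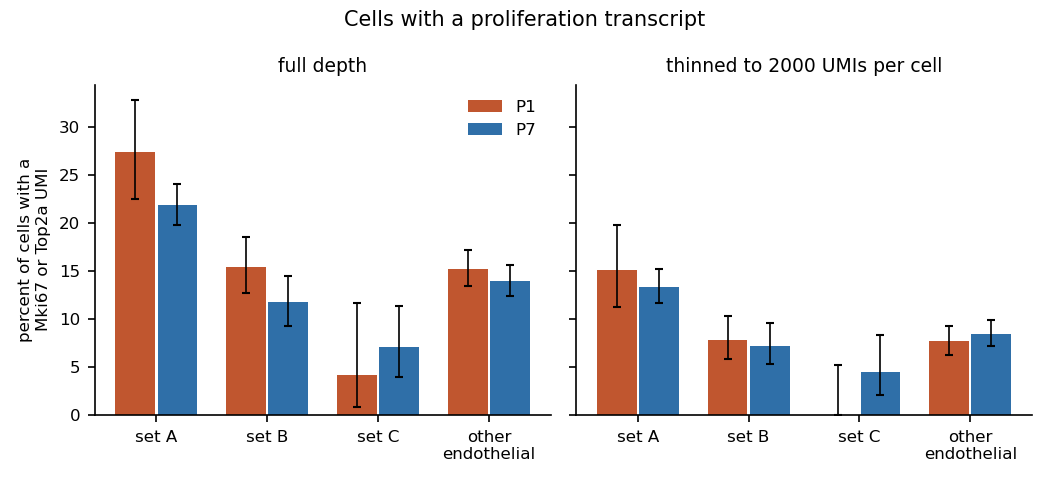
Percent of cells with a Mki67 or Top2a UMI (vertical axis) in set A, B and C cells and in all endothelial gated cells outside set A, at full depth and after thinning to 2000 UMIs, with 95% Clopper-Pearson intervals. Set A cells were at 27.4% and 21.9% at full depth and 15.1% and 13.3% after thinning, above set B cells in each library.

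Compared with all other endothelial gated cells, 14 of 10784 genes (0.130%) were at least 2-fold higher in Aplnr/Apln cells in both libraries and 251 (2.33%) at least 2-fold lower, selection and sex genes left out. Kcne3, a potassium channel subunit expressed by sprouting endothelium, was at 47.0 CPM against 7.02 CPM at P1 and 26.9 against 8.13 CPM at P7, log2 differences of 2.74 and 1.72. Adm was higher by 1.63 and 1.79, and Esm1 by 2.01 and 1.16. Thus 3 of 20 tip cell and angiogenic genes were among the 14. Of all genes, 2 were past the fold in this direction after thinning to 2000 UMIs and 7 with at least 3 set A genes required. Odc1, the first enzyme of polyamine synthesis, was at 335 against 141 CPM at P1 and 305 against 142 CPM at P7. Gng2, a G protein subunit, was higher by 1.25 and 1.23. Hells, a chromatin remodeller of S phase, was higher by 1.32 and 0.98, short of 2-fold at P7 and so outside the 14. Kcng2, Il16 and Smpdl3b were higher by between 0.94 and 1.22 in each library, where values below 1 fall short of 2-fold. Ccl2, a monocyte chemokine, was higher by 1.35 and 2.40, but 101 of its 164 UMIs at P1 and 113 of 247 at P7 lay in a single cell. After thinning, its P1 over P7 ratio turned from 1.25 to -0.25.

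Genes lower in the Aplnr/Apln cells included arterial and endocardial ones. Of 14 arterial genes 8 were at least 2-fold lower in both libraries, and of 11 endocardial genes 7, against 2.33% of all genes. The other endothelial gated cells include sets C and D, which the rule holds apart by arterial and endocardial genes. These counts are therefore a description. Enpp6 had 1 UMI at P1 and 13 at P7 in Aplnr/Apln cells, against 739 and 395 in the other endothelial gated cells. Pthlh, the parathyroid hormone related peptide, had 1 and 9 UMIs against 454 and 372. Dkk2, a WNT modulator, was at 0 against 56 and 163 UMIs, and Comp, a matrix protein, had 0 and 1 UMIs against 255 and 75. Cldn11, a claudin, had 0 and 2 UMIs against 76 and 98. Among secreted factors 9 of 19 were at least 2-fold lower in both libraries, against 2.33% of all genes, among them Wnt2, Nrg1, Edn1, Tgfb2 and Cxcl12.

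Against set B cells alone, 53 of 9435 genes (0.562%) were at least 2-fold higher in both libraries and 43 (0.456%) at least 2-fold lower. After thinning to 2000 UMIs the counts were 5 and 11, and with Rbp7 left out of set B 144 genes were higher. Gap43, a growth cone protein, was at 131 against 30.1 CPM at P1 and 51.5 against 13.9 CPM at P7. Kcne3 was higher by 2.99 and 2.31, Vwf by 3.05 and 3.79, and Ccl2 by 2.72 and 2.86. Of 20 S phase genes 5 were at least 2-fold higher in both libraries, Mcm2, Cdc6, Ung, Hells and Chaf1b.

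Genes lower than in set B cells included a chemokine, a claudin and haemoglobins. Cxcl12, the arterial chemokine and ligand of CXCR4, was at 54.2 against 345 CPM at P1 and 46.7 against 461 CPM at P7, differences of -2.67 and -3.30. Cldn15, a claudin, had differences of -2.79 and -2.02, and Thrsp, a lipogenic gene, of -2.09 and -1.74. Hbb-bt had differences of -4.24 and -1.82 and Hba-a2 of -2.04 and -2.44, on UMIs found in 5 and 2 Aplnr/Apln cells at P1. Of 16 capillary genes 1, Ly6c1, was at least 2-fold lower than in set B cells in both libraries. The capillary list had a median difference of -0.96 at P1 and -0.26 at P7.

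The Aplnr/Apln cells were also split by whether the ligand was detected. Apln is a set A gene, so cells without it met the rule through at least 2 of Aplnr, C1qtnf9 and Pcdh17. Aplnr was at 209 CPM in Apln-positive against 354 CPM in Apln-negative cells at P1, and at 432 against 538 CPM at P7. Contrasts between the positive and negative cells are therefore a description. Apln had a UMI in 170 of 303 cells at P1 and 892 of 1517 at P7. Apln-positive cells were deeper, with medians of 12686.5 against 9831 UMIs at P1 and 9001.5 against 6744 UMIs at P7, and the part of depth was not tested. A UMI of Mki67 or Top2a was present in 33.5% of positive and 19.5% of negative cells at P1 (26.5% to 41.2% and 13.2% to 27.3%) and in 26.2% and 15.7% at P7 (23.4% to 29.3% and 12.9% to 18.8%). The intervals overlap at P1 and not at P7.

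On the CPM scale few genes differed between these cells by 2-fold. Of 7319 genes 5 (0.0683%) were at least 2-fold higher in Apln-positive cells in both libraries. They included Ube2c, a mitotic ubiquitin conjugating enzyme, at 215 against 106 CPM at P1 and 170 against 77.0 CPM at P7, and the haemoglobin genes Hba-a1, Hbb-bs and Hbb-bt. Of the Hba-a1 UMIs, 2612 of 2629 at P1 and 2047 of 6759 at P7 lay in a single cell. Cdc6 was higher by 1.10 and 0.99, Ccne2, a cyclin of S phase entry, by 1.00 and 0.97, and Lrr1 by 0.97 and 1.01. S phase genes had a median of 0.98 at P1 and 0.67 at P7, and G2/M genes 0.47 and 0.70, against -0.02 and 0.00 over all genes. Tip cell and angiogenic genes had medians of 0.30 and 0.01 between these cells.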

How the data were processed

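The authors aligned reads to mm10/GRCm38 with Cell Ranger 3.1.0 and deposited, for either library, a matrix of UMI counts by gene and barcode. Files held 7836 barcodes and 63585504 UMIs at P1 and 9077 barcodes and 98346195 UMIs at P7. Counts of duplicate symbols were summed (31053 gene IDs, 31017 symbols). Barcodes with 200 to 8000 genes and at most 20% mitochondrial UMIs were retained (4991 and 8511). The mitochondrial limit of the study is not given in the sources used here. No doublet caller was run, and the Harmony integration and MAST tests of the study were not used, since cells are not replicates.

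UMIs were summed per library in python 3.11.15 (pandas 2.3.3, numpy 2.4.6, scipy 1.17.1), and figures drawn with matplotlib 3.10.9. Intervals were exact Poisson for CPM, Clopper-Pearson for shares and conditional binomial for ratios. UMIs are single molecules, but cells of a pool share animals. The interval for ratios was tried on simulated Poisson counts, the model that it assumes. The simulation held no single cells with many UMIs of a gene, so coverage for such genes was not tested. Gene positions came from GENCODE M21 (30907 of 31017 symbols matched). Unused columns of per-sample values numbered 0.

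Members and gene lists were chosen with earlier results of these data known. Genes named are the selection and sex genes, the 10 largest ratios in each direction of genes reaching 100 UMIs in either library (haemoglobins and predicted genes left out), up to 4 genes per list, the most abundant gene of each list of another cell type, and the 10 highest and 5 lowest against other endothelial gated cells, 5 and 5 against set B, and 8 between Apln-positive and Apln-negative cells. The genes named for contrasts within libraries were not all past the fold in both. Other members of a list were named to complete its description after their values were seen. Results for some items are not reported here.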

Additional observations from a re-analysis of the deposited data

Results flagged for a closer look

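Some genes had 2-fold differences between ages of opposite direction in the Aplnr/Apln cells and in set B cells, with neither interval including 0. The difference between the differences was not tested. Ctgf, a matricellular growth factor and YAP target, had a ratio of 1.32 in Aplnr/Apln cells, with 171 UMIs at P1 and 245 at P7, and -1.16 in set B cells. Pdlim3, an actinin binding protein, had 1.66 and -1.14, and Tspan8, a tetraspanin, 1.36 and -1.06. Kcnj8, a potassium channel of mural cells, had -1.36 and 1.23, and Colec11, a collectin, -2.29 and 1.35. Without Foxf1, Scn7a or Hoxa5 cells Tspan8 was -0.45 and Colec11 -3.59 in Aplnr/Apln cells. At P1, 7 of 14 Colec11 UMIs, 7 of 27 Kcnj8 UMIs, 47 of 171 Ctgf UMIs and 44 of 268 Pdlim3 UMIs lay in a single cell. Without the cell with most UMIs of the gene in each library, Ctgf was 1.02 and Kcnj8 -1.65; for Colec11 and Pdlim3 the part of that cell was not tested.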

How the results depend on the processing

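Shares and counts were recomputed under 13 listed alternatives and 3 chosen after seeing the data, which were set B without Rbp7, set A without C1qtnf9, and each gene without its highest cell. The P7 share was the larger under each alternative that altered cells. Requiring at least 3 set A genes gave 3.31% of retained cells at P1 and 14.1% at P7, with 7 genes higher than in other endothelial gated cells in both libraries. Thinning to 2000 UMIs gave 3.17% and 12.4%, 129 genes higher at P1, 3 imprinted, 2 interferon, 5 cardiomyocyte and 2 mural genes past the fold, 2 and 50 genes higher and lower than in other endothelial gated cells, and 5 and 11 against set B cells. Without Foxf1, Scn7a or Hoxa5 cells the P7 share was 21.7%, since the retained cells fell from 8511 to 6739 and the members from 1517 to 1462. A strict filter against doublets (cells with UMIs of at least 2 of 8 mural and fibroblast genes, and the deepest 5% of cells) kept only 1591 of 4991 and 1640 of 8511 cells, with 187 and 526 members, so on the smaller totals shares were 11.8% and 32.1%, with 186 genes higher at P7, 3 imprinted and 1 mural, and 61 and 24 genes lower than in other endothelial gated and set B cells. The mean of per-cell CPM gave 320 genes higher at P1. A minimum of 200 UMIs gave 74 and 136 genes, 2 interferon genes, 6 and 105 against other endothelial gated cells and 18 and 25 against set B cells, and a minimum of 20 UMIs gave 378 and 576, and 87 higher than set B. Set B without Rbp7 gave 9.36% and 23.7%, with 67 and 144 genes higher than in other endothelial gated and set B cells. Set A without C1qtnf9 gave 5.05% and 12.7%, with 33 genes higher than set B. Of 2547 recomputed ratios of 163 named genes, 2182 stayed within their interval, 360 moved beyond it (88 after thinning, where 39 stayed) and 5 reversed, Lyve1 to -1.12 without Foxf1, Scn7a or Hoxa5 cells, Hbb-bt to 0.61 with at least 3 set A genes, Ccl2 to -0.25 and Pdk1 to -0.083 after thinning, and C1qb to 0.22 by the mean of per-cell CPM. The Lyve1 value rested on fewer than 50 UMIs, and the cause of these changes was not tested. The remaining 65 of 98 shares and counts stayed within their interval or within 1.5 times. No paired analysis was possible because each age had 1 library. Set E cells, 17 and 21, were too few to describe.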
